A study of Mus musculus with 8 samples.

Results

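Importins and exportins carry proteins and RNA through the nuclear pore, and the small GTPase Ran sets the direction of that transport. An importin α binds the nuclear localisation signal of a cargo, importin β1 joins the complex and takes it through the pore, RanGTP releases the cargo inside the nucleus, and the exportin CAS returns the importin α to the cytoplasm. In the meiotic oocyte the same proteins remain in use after nuclear envelope breakdown (NEBD), when there is no pore left to cross: importins hold spindle assembly factors inactive, and RanGTP made around the chromosomes sets them free. The genes described here are those of 6 importins α (Kpna1, Kpna2, Kpna3, Kpna4, Kpna6 and Kpna7), of importin β1 (Kpnb1), of the exportin CRM1 (Xpo1), of CAS (Cse1l) and of Ran itself. They were taken by symbol, without regard to their values, and are 10 of the 25574 genes listed. Each of the 10 symbols matched 1 entry, and all 10 passed the filter on low values, with 14292 genes tested in all.

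The data were 8 RNA-seq libraries from sucrose gradients on which lysates of NEBD-stage mouse oocytes had been separated by SSP-profiling, a polysome profiling protocol for scarce samples. Of these, 4 libraries held the non-polysomal (NP) RNA and 4 the polysomal (P) RNA, the latter from the heavier fractions, where mRNAs with several ribosomes sediment. NP covered the lighter fractions with ribosomal subunits and single ribosomes, and the topmost fraction was in neither pool. Maternal mRNA stored in protein particles also lies in NP, according to the authors. The authors could neither show nor exclude that heavy stored particles with ribosomal RNA sediment along with the polysomes. Oocytes of both datasets came from 8-week-old CD1 mice primed with 5 IU PMSG 46 h earlier, were held at prophase with 100 µM IBMX, were released into IBMX-free medium for 180 min and were exposed to 0.1 mg/mL cycloheximide, which arrests ribosomes on mRNA, for 10 min before lysis. Each profile used 200 pooled oocytes, was collected in 10 fractions and gave both an NP and a P pool. The comparison of P with NP asks which mRNAs were loaded on polysomes. No genetic change separated the datasets and there was no untreated control. Because every library is a pool, fewer oocytes holding an mRNA and less of that mRNA in each oocyte cannot be told apart.

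Values are FPKM, that is, counted fragments divided by the exon length of the gene and by a scaling number of its library, so that levels of different genes can be compared per length. The scaling number recovered from the values was 1299377 to 7594637 in the NP libraries and 2677946 to 4699328 in the P libraries. All 10 oocyte markers examined, such as Zp3 and Gdf9, had values above 0, and their summed FPKM was 5801 to 11709 in NP and 8036 to 36486 in P. Markers of granulosa and cumulus cells summed to 6.86 to 125 FPKM in NP and to 0.190 to 62.6 FPKM in P, with Ptx3, Foxl2, Inhba and Has2 at 0 in all 8 libraries. Cyp19a1, however, was above 0 in all 8, with 6.07 to 75.2 FPKM in NP and 0.190 to 62.6 FPKM in P. Cyp11a1 reached 46.4 FPKM in NP replicate 4 and 17.9 FPKM in P replicate 4. The highest value among the remaining markers of this list was 3.40 FPKM (Star, NP replicate 4). Of the 5 blood, theca, endothelial and stromal markers listed, Ptprc, Hba-a1 and Col1a1 were at 0 throughout and Cyp17a1 was above 0 only in NP replicate 4 (1.58 FPKM), but the endothelial marker Pecam1 had 10.9 to 63.5 FPKM in NP and 6.36 to 77.7 FPKM in P, and the part of such cells in the values below was not tested. Over all genes with a mean above 1 FPKM, the median coefficient of variation between libraries was 0.709 in NP and 1.02 in P.

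Some of these mRNAs resemble other transcribed sequences, and the stretches below show how closely, since reads from such copies can be counted for either gene. Ran lies on chromosome 5 (GRCm38 chr5:129020069-129024323, plus strand). Its intronless retrogene copy Rasl2-9 has a coding sequence of the same 651 bases, of which 35 differ, leaving 94.6% identity. A closer copy, the processed pseudogene Gm13461 on chromosome 2, had 97.3% identity to Ran over 662 bases and was not listed with FPKM values. The first 90 coding bases of Ran and Rasl2-9 are given 5′ to 3′, with the 5 differing bases in capitals:

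Ran: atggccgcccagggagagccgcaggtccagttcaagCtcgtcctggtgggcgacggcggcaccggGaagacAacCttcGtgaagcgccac
Rasl2-9: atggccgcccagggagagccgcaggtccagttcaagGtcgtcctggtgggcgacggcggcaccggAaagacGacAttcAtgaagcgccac

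Kpna2 lies on chromosome 11 (GRCm38 chr11:106988629-106999541, minus strand). The annotation holds 5 copies of it with at least 95% identity over at least 150 bases, of which Gm10184 on chromosome 17 and Gm10259 on chromosome 3 were listed with FPKM values. Over the 1590 coding bases of Kpna2 they differed from it at 2 and 3 bases. Coding bases 666 to 755 of Kpna2, which hold 2 of these positions (in capitals), read 5′ to 3′:

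Kpna2: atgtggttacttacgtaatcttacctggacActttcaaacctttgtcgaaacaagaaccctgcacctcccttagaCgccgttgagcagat
Gm10184: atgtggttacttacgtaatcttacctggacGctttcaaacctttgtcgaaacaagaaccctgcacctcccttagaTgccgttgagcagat
Gm10259: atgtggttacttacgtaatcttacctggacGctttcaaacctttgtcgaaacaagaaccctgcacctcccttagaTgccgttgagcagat

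The bulk of the importin α mRNA in these oocytes was Kpna2 and Kpna7, in NP and P alike, and both ranked among the most abundant transcripts. Kpna6 and Kpna3 were lower (104 and 44 FPKM on average in NP), and Kpna4 and Kpna1 were near the detection limit. None of the 10 genes differed between P and NP at an adjusted p below 0.1 by limma with Benjamini-Hochberg adjustment, and none had an unadjusted p below 0.05 in that fit. Under other settings 3 of them did, with adjusted p-values that remained above the threshold: Cse1l (0.00995) and Ran (0.0165) with every library brought to the same median FPKM, both higher in P, and Kpna6 (0.0356) by limma-voom on recovered fragments, lower in P. These same 3 genes also did so with 1 library left out, as given for each below. Over all genes, 1630 of 12899 had an unadjusted p below 0.05 lower in P by limma-voom. With 1 library left out, 1062 to 1552 genes were lower in P at that level in limma and 36 to 162 higher, of 13913 to 14262 tested. Over all genes tested, 0.021% were called at the adjusted threshold and 9.95% had an unadjusted p below 0.05, made up of 9.47% higher in NP and 0.476% higher in P. No member had all 4 libraries of one dataset above all 4 of the other, a pattern found in 6.28% of all genes tested (NP above P in 5.92%, P above NP in 0.357%). Both splits depended on the scaling. With the same median FPKM in every library, 2.70% of all genes had an unadjusted p below 0.05 higher in NP and 7.04% higher in P, and NP lay above P in 2.09% and P above NP in 5.04%. With quantile normalization these shares were 4.04% and 2.55%, and 2.53% and 4.62%.

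**Figure D1:**
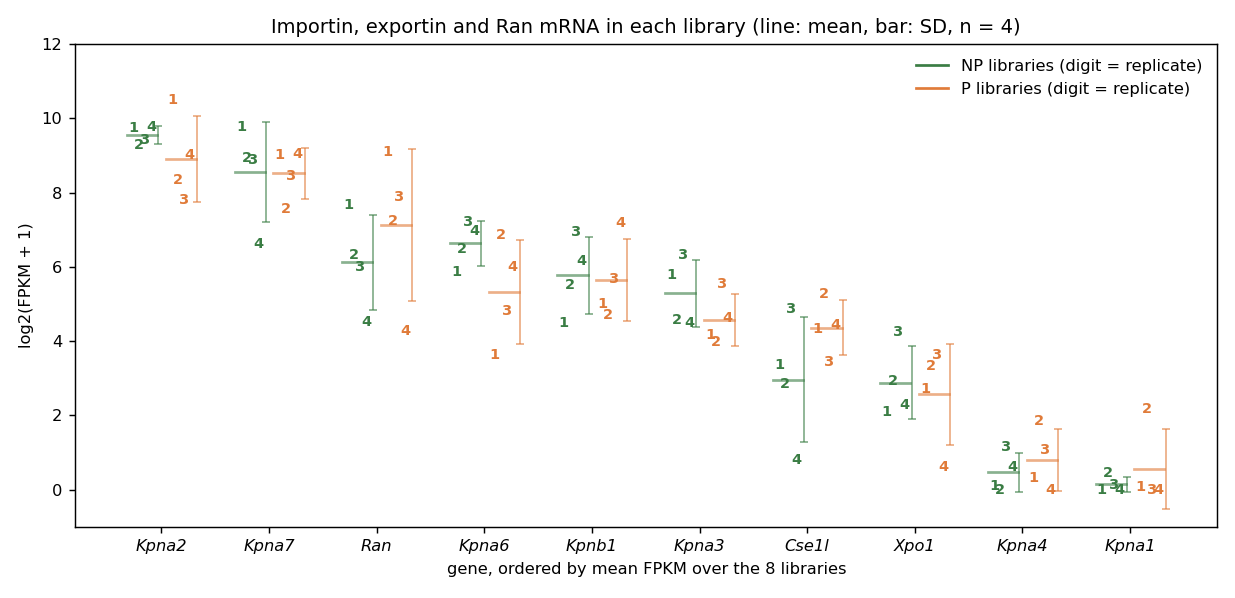
FPKM of the 10 genes in each library, drawn as log2(FPKM + 1) on the vertical axis with genes ordered by mean FPKM, where each digit is the replicate number of an NP (green) or P (orange) library, lines are means of the 4 libraries and bars are SDs on this scale. Kpna2 and Kpna7 stand at the top, Kpna4 and Kpna1 near 0, and the NP and P libraries overlap for every gene.

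Kpna2, an importin α abundant in proliferating cells, was the most abundant of the 10 mRNAs on average in both datasets. Its NP libraries 1 to 4 had 851, 624, 686 and 873 FPKM, and its P libraries 1441, 323, 222 and 511 FPKM. The NP libraries lay close together and inside the range of the P libraries, of which the first was above all others and the remaining 3 were below every NP library. The means were 759 ± 122 FPKM in NP and 624 ± 558 FPKM in P (SD, n = 4 each), with a coefficient of variation of 0.161 in NP and 0.893 in P. The log2 fold change of P over NP was −0.65 ± 0.61 (SE) on log2(FPKM + 1), with a 95% interval from −1.96 to 0.66 and an adjusted p of 0.687 (limma). Without P replicate 1 it was −1.17 with an unadjusted p of 0.0525 in limma, and the datasets then no longer overlapped. In that refit NP lay above P in 1607 of the 14155 genes tested. The log2 fold change of Kpna2 was −0.28 without P replicate 3 (unadjusted p = 0.665, limma) and −0.46 without P replicate 2 (0.515). Within each library Kpna2 ranked between the 98.8th and the 99.8th percentile of all listed genes. Fragments assigned to Gm10184 and Gm10259 came to 1.12% to 2.20% of those assigned to Kpna2, and adding them left its log2 fold change at −0.65.

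Kpna7, the importin α known mainly from oocytes and early embryos, came next (GRCm38 chr5:144983519-145084030, minus strand). It had 864, 490, 472 and 97.6 FPKM in NP libraries 1 to 4 and 512, 187, 350 and 527 FPKM in the P libraries. The highest and the lowest of the 8 values were both from NP. Means were 481 ± 313 FPKM in NP and 394 ± 160 FPKM in P, and the log2 fold change was −0.04 ± 0.69 with a 95% interval from −1.51 to 1.43 (adjusted p = 0.982, limma). An interval of that width holds both a 2.70-fold higher and a 0.351-fold level in P, so the data do not show the 2 pools to be alike. The sign was not stable either: leaving out NP replicate 1 gave 0.36, NP replicate 2 gave 0.09, NP replicate 3 gave 0.07 and P replicate 2 gave 0.28. Kpna7 shares 50 exon bases with Arpc1a on the opposite strand, and the library protocol as described does not mark the strand.

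Since both genes rank so high, their balance within a library, which does not depend on scaling between libraries, was examined as a share of the summed importin α FPKM. That sum was 1388 ± 312 FPKM in NP and 1099 ± 630 FPKM in P. Kpna2 made up 56.3 ± 14.7% of it in NP and 50.7 ± 16.1% in P, and Kpna7 32.5 ± 16.8% in NP and 39 ± 13.7% in P (SD, n = 4 each). Together they made up between 79.1% and 98.6% in each of the 8 libraries, with means of 88.8 ± 4.51% in NP and 89.6 ± 8.15% in P. The split between them moved much more than their joint share. Kpna7 stood at 1.01, 0.786, 0.689 and 0.112 times Kpna2 in NP libraries 1 to 4 and at 0.355, 0.579, 1.58 and 1.03 times in the P libraries. It was thus the more abundant of the pair in NP replicate 1 and in P replicates 3 and 4, and the less abundant in the other 5 libraries. The mean log2 ratio was −1.01 ± 1.45 in NP and −0.39 ± 0.94 in P, a difference of 0.61 (two-sided exact permutation test over 70 assignments, p = 0.543). NP replicate 4, where Kpna7 was lowest against Kpna2, also had the highest summed granulosa and cumulus markers (125 FPKM, against 6.86 to 36.3 FPKM in the other NP libraries), and the part of this in the ratio was not tested.

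**Figure D2:**
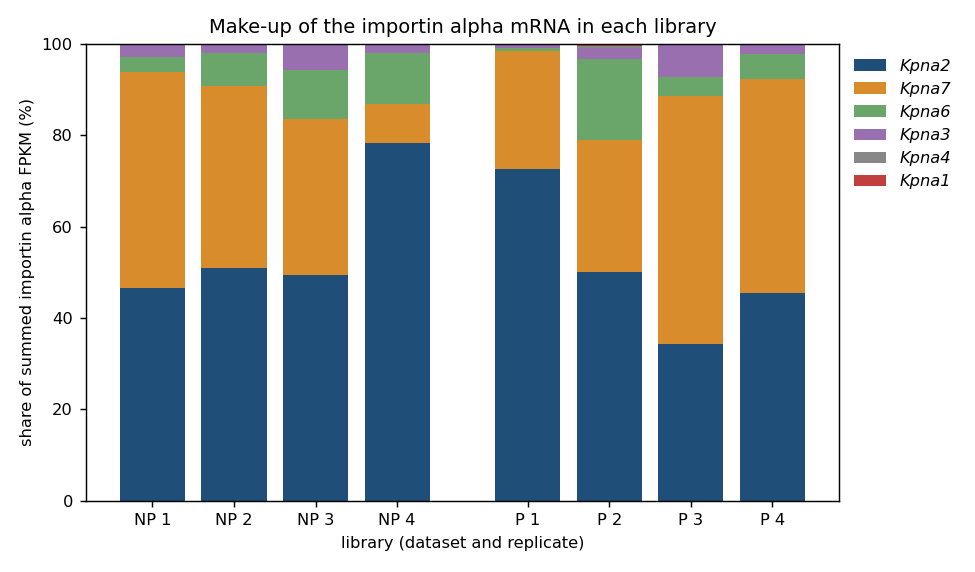
Share of each importin α gene in the summed importin α FPKM (vertical axis, in percent) in each of the 4 NP and 4 P libraries. Kpna2 (blue) and Kpna7 (orange) fill between 79.1% and 98.6% of every bar, and the boundary between them lies highest in NP 4 (Kpna2 at 78.2%) and lowest in P 3 (Kpna2 at 34.4%).

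The other importins α fall into 2 sequence subfamilies, Kpna6 with Kpna1 and Kpna3 with Kpna4, and in each of them the first-named gene carried most of the mRNA in every library. Kpna6 (GRCm38 chr4:129643980-129672767, minus strand) had 57.1, 88.8, 148 and 123 FPKM in NP libraries 1 to 4 and 11.3, 114, 27.1 and 63.1 FPKM in the P libraries. Of the P libraries, the first and the third lay below every NP library, while the second exceeded 2 of the 4. In 3 of the 16 possible pairings of a P with an NP library the P value was the higher, against means of 104 ± 39.7 FPKM in NP and 53.9 ± 45.5 FPKM in P. Its log2 fold change of −1.31 ± 0.72 was the lowest of the 10, with a 95% interval from −2.86 to 0.24, an unadjusted p of 0.0908 and an adjusted p of 0.541 in limma. Leaving out P replicate 2 gave −1.82 with an unadjusted p of 0.0251, and leaving out P replicate 1 gave −0.74 with 0.291, both by limma.

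Kpna3 (GRCm38 chr14:61365186-61439947, minus strand) had 53.8, 22.7, 78.1 and 21.5 FPKM in NP and 16.8, 14.8, 45.6 and 23.7 FPKM in P. The third replicate was the highest of its dataset in both. Its log2 fold change was −0.71 ± 0.68, with an adjusted p of 0.689 by limma.

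Kpna4 and Kpna1 were both listed at 0 in some libraries of each dataset. Kpna4 (GRCm38 chr3:69067149-69127113, minus strand) had 0.0701, 0, 1.21 and 0.530 FPKM in NP and 0.238, 2.62, 1.08 and 0 FPKM in P, which rest on 0 to 79 counted fragments per library. A count of 0 still allows 0.258 FPKM in NP replicate 2 and 0.125 FPKM in P replicate 4, taking 3 counts per library as the limit. Kpna1 (GRCm38 chr16:35978750-36037131, plus strand) had 0, 0.363, 0.0809 and 0 FPKM in NP and 0.0502, 3.53, 0 and 0 FPKM in P. Only P replicate 2 held more than 5 counted fragments of Kpna1, namely 96, and that library held 98.6% of the summed FPKM of the P dataset. In the same library the gene Gm15564 had 18981 FPKM against 404 to 998 FPKM in the other P libraries. Its NP libraries 1 to 4 had 301, 2543, 2610 and 574 FPKM. Gm15564 lies on the opposite strand, overlaps the 5′ part of the Kpna1 span and shares no exon bases with it. It was looked at after the values had been seen, and its part in the Kpna1 values was not tested. A 0 for Kpna1 allows up to 0.0465 to 0.132 FPKM, depending on the library. The log2 fold changes were 0.34 ± 0.48 for Kpna4 and 0.42 ± 0.45 for Kpna1, with adjusted p-values of 0.770 and 0.708 by limma, and without P replicate 2 they were −0.01 and −0.12. At this depth no difference between P and NP was detectable for either gene.

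Kpnb1 encodes importin β1, the partner that carries the importins α and their cargo (GRCm38 chr11:97159714-97187881, minus strand). It had 21.4, 44.3, 122 and 69.99 FPKM in NP libraries 1 to 4 and 31.2, 25.0, 49.7 and 145 FPKM in the P libraries. The datasets overlapped over nearly their whole range, with means of 64.5 ± 43.3 FPKM in NP and 62.7 ± 55.8 FPKM in P. The log2 fold change was −0.13 ± 0.73 with a 95% interval from −1.69 to 1.43 (adjusted p = 0.944, limma), and it became 0.26 without NP replicate 3, 0.08 without P replicate 1 and 0.18 without P replicate 2. Kpnb1 shares 466 exon bases with the antisense gene Gm11583. Without strand information reads from the shared bases cannot be assigned, although the fragments listed for Gm11583 were at most 6.0% of those of Kpnb1 in any library.

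In every library the mRNAs of both exportins were below those of Kpna2 and Kpna7. Xpo1 encodes CRM1, which exports proteins with leucine-rich export signals (GRCm38 chr11:23256041-23298249, plus strand). It had 3.23, 6.64, 18.1 and 3.81 FPKM in NP and 5.54, 9.03, 11.3 and 0.520 FPKM in P, the last of these resting on 10 counted fragments. P replicate 4 lay far below the other 7 libraries. The log2 fold change was −0.32 ± 0.94, with a 95% interval from −2.33 to 1.69 and an adjusted p of 0.892 (limma), and it was 0.34 without P replicate 4 and 0.14 without NP replicate 3.

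Cse1l encodes CAS, the exportin that returns importin α to the cytoplasm (GRCm38 chr2:166906040-166946389, plus strand). It had 9.27, 6.13, 28.2 and 0.724 FPKM in NP libraries 1 to 4 and 18.9, 37.3, 9.90 and 20.5 FPKM in the P libraries. Every P library exceeded 3 of the 4 NP libraries, and NP replicate 3 lay above 3 of the 4 P libraries, so that P was the higher in 13 of 16 pairings. The means were 11.1 ± 11.9 FPKM in NP and 21.6 ± 11.4 FPKM in P. Its log2 fold change of 1.40 ± 0.89 was the highest of the 10 genes, with a 95% interval from −0.52 to 3.32, an unadjusted p of 0.140 and an adjusted p of 0.599 in limma. This value depended on which NP libraries were used: it was 0.67 without NP replicate 4, where 29 fragments were counted, and 2.03 without NP replicate 3 (unadjusted p = 0.0469, limma), when the datasets no longer overlapped. In the latter refit P lay above NP in 153 of the 13913 genes tested.

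Ran was the third most abundant of the 10 mRNAs over all libraries. It had 200, 78.2, 62.7 and 22.0 FPKM in NP libraries 1 to 4 and 547, 149, 234 and 18.5 FPKM in the P libraries. The first replicate was the highest and the fourth the lowest in both datasets, and the 8 libraries spanned a 29.6-fold range. Means were 90.7 ± 76.6 FPKM in NP and 237 ± 225 FPKM in P, and P was the higher in 11 of 16 pairings. The log2 fold change was 1.0 ± 0.94, with a 95% interval from −1.01 to 3.01, an unadjusted p of 0.303 and an adjusted p of 0.684 by limma. Leaving out P replicate 1 gave 0.34, leaving out NP replicate 4 gave 0.47, and leaving out P replicate 4 gave 1.95 with an unadjusted p of 0.0216, in limma.

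Rasl2-9, the copy whose sequence is shown beside that of Ran, lies on chromosome 7 (GRCm38 chr7:5124945-5125950, minus strand). It had 42.0, 63.5, 89.3 and 74.3 FPKM in NP libraries 1 to 4 and 7.40, 53.3, 10.5 and 24.9 FPKM in the P libraries. P replicate 2 was the only P library above any NP library. Its log2 fold change was −1.78 ± 0.70, with an unadjusted p of 0.0231 and an adjusted p of 0.440 by limma. The fragments counted for it ranged from 0.515% of those of Ran in P replicate 1 to 129% in NP replicate 4. The log2 ratio of Rasl2-9 to Ran was −0.07 ± 1.68 in NP and −2.93 ± 2.97 in P (SD, n = 4 each), a difference of −2.86 (two-sided exact permutation test, p = 0.171). Together with the ratio of Kpna7 to Kpna2 and that of Ran to Kpnb1 (difference of 1.14, exact permutation p = 0.571), 3 ratios were compared, the p adjusted over the 3 was 0.514 or higher for each, and the smallest p that the design allows was 0.0286. When the fragments of Rasl2-9 were added to those of Ran, the log2 fold change of the sum was 0.63 (unadjusted p = 0.451, limma). Gm13461, without listed values, could not be added in this way. Whether reads were shared between Ran, Rasl2-9 and Gm13461 was not tested.

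**Figure D3:**
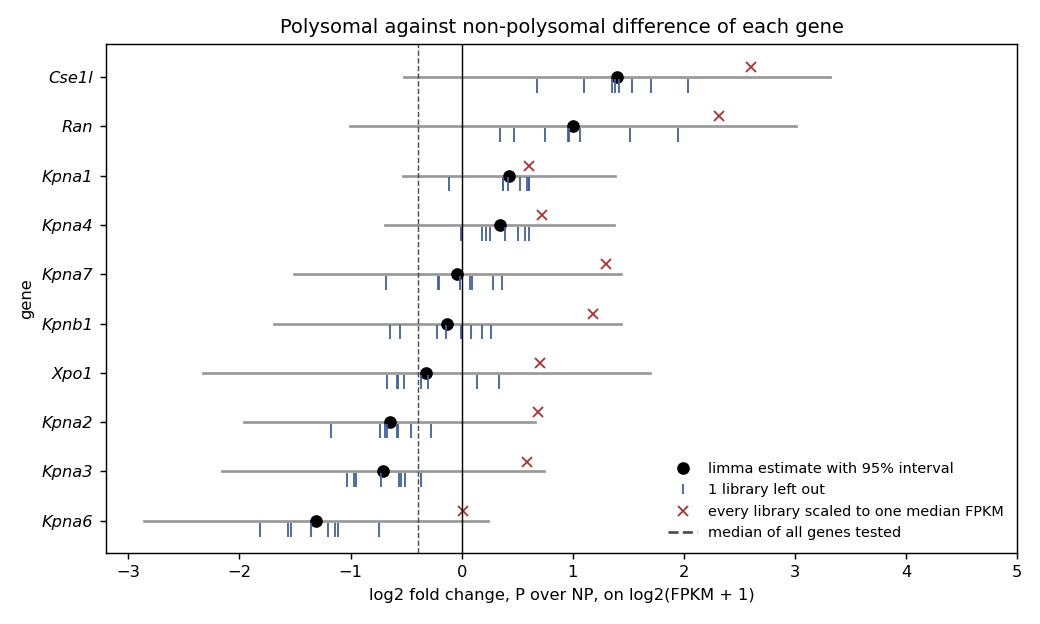
Log2 fold change of P over NP for each gene (horizontal axis, on log2(FPKM + 1)), with the limma estimate and its 95% interval (black and grey), the estimates with 1 of the 8 libraries left out (blue ticks), the estimate with every library scaled to the same median FPKM (red crosses) and the median of all genes tested (dashed). All 10 intervals cross 0, and the red crosses lie to the right of 0 for every gene.

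The fold changes of the 10 genes are read against those of all genes, because the median log2 fold change over all 14292 genes was itself −0.39 and 28.6% of them had a value above 0. Of the 10 genes, 4 had a value above 0 (Cse1l, Ran, Kpna1 and Kpna4) and 6 below, with a median of −0.08, and 7 were above 0 without NP replicate 3. The split depended on the scaling. With every library scaled to the same median FPKM, the median of all genes was 0.21 and all 10 values were above 0, led by Cse1l (2.60), Ran (2.32), Kpna7 (1.30) and Kpnb1 (1.18). With quantile normalization, 6 of the 10 were above 0 and the median of all genes was −0.02. Cse1l and Ran kept the highest values of the 10 under each of these scalings, and neither passed the adjusted threshold under any alternative, the lowest adjusted p being 0.421 for Cse1l and 0.428 for Ran by limma.

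In order of mean FPKM, the genes in NP ran Kpna2, Kpna7, Kpna6, Ran, Kpnb1, Kpna3, Cse1l, Xpo1, Kpna4 and Kpna1. In P, Ran moved to the third place and Kpnb1 to the fourth, ahead of Kpna6, and the rest kept this order. Neighbours in the order overlapped between libraries, other than Xpo1 and Kpna4 in NP, where the lowest value of Xpo1 (3.23 FPKM) was above the highest of Kpna4 (1.21 FPKM).

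The rest of the nuclear transport system was read from 4 further lists, none of which had a gene past the adjusted threshold or an unadjusted p below 0.05 in limma with the FPKM as deposited. The counts above and below 0 given for them moved with the scaling, as did those of the members: with one median FPKM set for all libraries, 14 of 16 other importin β family genes, 5 of 7 Ran cycle genes, all 7 spindle factors and 9 of 11 export factors had a value above 0, and with quantile normalization 13, 4, 6 and 6 had. With one median FPKM, 4 other importin β family genes, 4 spindle factors and 2 export factors also had an unadjusted p below 0.05, all higher in P, and with quantile normalization 1 spindle factor (Tpx2, 0.0355) had, in limma. Nxf1, lower in P, had one by limma-voom (0.0408), with replicate number as a block (0.0342), and without P replicate 2 (0.0222) or 3 (0.0163). Also lower in P were Rae1 without NP replicate 4 (0.0298) and Ranbp17 without P replicate 3 (0.0412), by limma. Without P replicate 1, Tnpo1 (0.0473) and Xpo5 (0.0286) were higher in P, by limma. Over all genes, an unadjusted p below 0.05 lower in P was found for 1630 of 12899 by limma-voom and 1618 of 14292 with the block. With 1 library left out it was found in limma for 1062 to 1552 genes lower in P and 36 to 162 higher. The 16 other receptors of the importin β family had 8 values above and 8 below 0 and a median log2 fold change of 0.01, a split that moved to 11 above and 5 below without NP replicate 3 and to 5 above and 11 below without P replicate 2. Transportin Tnpo1 had 61.8, 64.2, 162 and 113 FPKM in NP and 90.5, 203, 203 and 301 FPKM in P, a log2 fold change of 0.98 ± 0.59 (unadjusted p = 0.118, limma). Of its 16 pairings of libraries, P was the higher in 14. Xpo5, which exports pre-miRNA, had a log2 fold change of 1.51 ± 0.92 (unadjusted p = 0.124, limma) that rested on P replicate 3 (1119 FPKM, 86.2% of the P sum). Ranbp17 had −1.45 ± 0.93, and Tnpo2, the most abundant of this list, had means of 208 ± 52.2 FPKM in NP and 178 ± 37.3 FPKM in P.

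Regulators of the Ran cycle, 7 genes in all, had 6 values below 0 and a median log2 fold change of −0.79, against the median of −0.39 over all genes. Rangap1, which makes Ran hydrolyse its GTP, had 2.05, 2.88, 4.49 and 4.59 FPKM in NP and 2.25, 0.680, 0.981 and 0.698 FPKM in P. Only P replicate 1 exceeded an NP library, and the log2 fold change was −1.08 ± 0.73 (unadjusted p = 0.161, limma). Rcc1, the chromatin-bound exchange factor that makes RanGTP, had means of 6.98 ± 1.68 FPKM in NP and 4.21 ± 2.99 FPKM in P. Rangrf had a log2 fold change of −1.03 ± 0.80, and Ranbp3, the most abundant of the 7, had 117 ± 70.5 FPKM in NP and 102 ± 43.1 FPKM in P. Some of these values rest on few counted fragments. Rangrf had 3 to 112 per library in NP and 0 to 8 in P, Rangap1 6 to 34 in P, and Rcc1 3 in P replicate 2. The difference of this list's median from that of all genes changed sign, to 0.09, with quantile normalization and without P replicate 2, to 0.03 without NP replicate 4 and to 0.04 without P replicate 4.

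Spindle factors that importins bind and RanGTP releases had 5 of 7 values above 0 and a median log2 fold change of 0.32, which became 3 of 7 and −0.0069 without P replicate 1. Tpx2, which activates Aurora kinase A at the spindle, had 30.9, 19.1, 41.8 and 48.4 FPKM in NP and 42.5, 93.5, 135 and 52.9 FPKM in P. P replicates 2 to 4 lay above every NP library, and P was the higher in 15 of 16 pairings. The means were 35.0 ± 12.9 FPKM in NP and 80.9 ± 42.0 FPKM in P, and the log2 fold change was 1.12 ± 0.61 with an unadjusted p of 0.0903 and an adjusted p of 0.541 in limma. Nusap1, a microtubule-bundling protein, had a log2 fold change of 1.34 ± 0.80, and Hmmr had 0.90 ± 0.77 with 97.1% of its P sum in 1 library. Kif22, a chromosome-arm kinesin and the most abundant of the 7, had 321 ± 174 FPKM in NP and 306 ± 78.2 FPKM in P.

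Export factors for mRNA, snRNP and ribosomal subunits had 4 of 11 values above 0 and a median of −0.15. Nxf1, the principal mRNA export receptor, had 210, 276, 230 and 311 FPKM in NP and 39, 262, 301 and 0.981 FPKM in P. The P libraries thus fell into a high and a low pair, while the NP libraries lay close together, and the log2 fold change was −2.35 ± 1.22 (unadjusted p = 0.0747, limma). Nmd3 and Rae1 had log2 fold changes of −1.40 ± 0.97 and −0.94 ± 0.67.

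**Figure D4:**
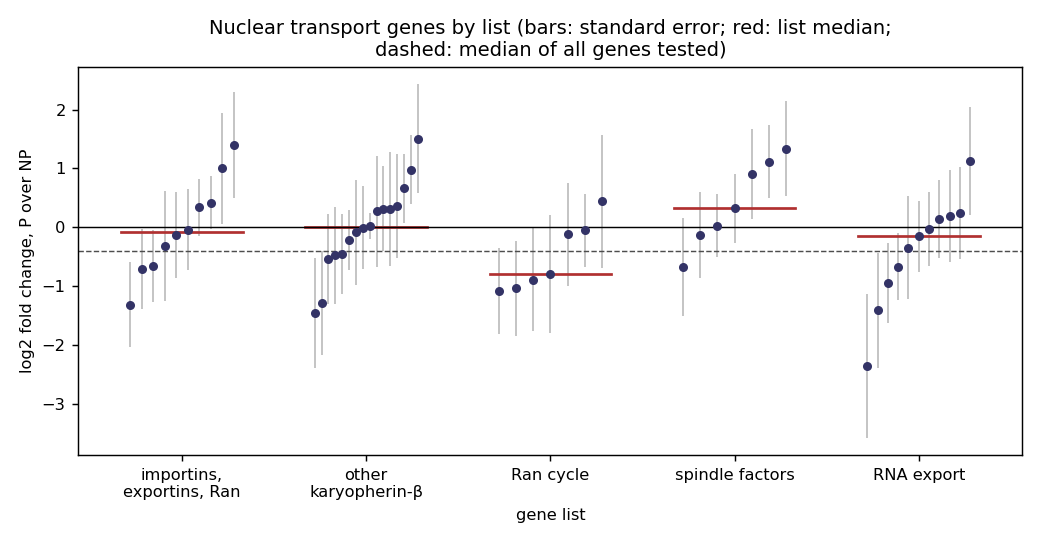
Log2 fold change of P over NP (vertical axis, on log2(FPKM + 1)) of each gene in the 10 importin, exportin and Ran genes and in 4 further lists of nuclear transport genes, with standard errors as bars, list medians in red and the median of all genes tested dashed. The medians run from −0.79 for Ran cycle regulators to 0.32 for spindle factors, and the spread within each list is wider than the distance between the medians.

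The 3′ ends of the 10 mRNAs were examined for 2 kinds of element that govern polyadenylation in oocytes, using 1 annotated GRCm38 transcript per gene. The cytoplasmic polyadenylation element was searched as TTTTAT or TTTTAAT on the sense strand in the last 100 bases of the 3′ UTR, and the polyadenylation signal as AATAAA or ATTAAA in the last 40 bases. Of 11098 genes with a 3′ UTR of at least 100 bases, 19.4% held the first and 76.9% the second. Of the 10 genes, 7 held a polyadenylation signal, while Kpna1, Cse1l and Ran had no match in the window. The signal was ATTAAA in Kpna2, Kpna4 and Kpna7, and AATAAA in Kpna3, Kpna6, Kpnb1 and Xpo1. Kpnb1 alone held a match to the cytoplasmic element, and that match lay downstream of its polyadenylation signal. The AATAAA began 30 bases from the end of the 3′ UTR and the TTTTAT 13 bases from it. The last 13 bases are given 5′ to 3′ with the match in capitals:

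Kpnb1: TTTTATtttcaac

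The 3′ UTR lengths ran from 258 bases in Kpna2 and 532 bases in Kpna7 to 4012 bases in Kpna6, with a median of 1052 bases over the 11098 genes. A match in these windows is a description of the annotated sequence, and the 3′ ends used in the oocytes were not measured.

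The genes whose FPKM followed a member most closely over the 8 libraries were found by the root mean square difference of log2(FPKM + 1) after centring, among 5639 genes with a mean above 10 FPKM. For Kpna2 these were Anxa7, Ssu72 and Amz2, at 0.271, 0.309 and 0.354 against a median of 1.28 over all genes compared. For Kpna7 they were Traf7, Elac2 and Dnahc10, at 0.382, 0.401 and 0.416 against a median of 1.43. For Ran they were Gm4294, Gm8420 and Vim, at 0.378, 0.398 and 0.432 against a median of 1.91. Vim, an intermediate filament gene, had 10.7, 5.27, 5.24 and 0 FPKM in NP and 53.2, 11.5, 21.4 and 0 FPKM in P. Like Ran, it was highest in the first replicate and lowest in the fourth of both datasets. The 8 points share their libraries and the depth of each, so the likeness is a description of these libraries.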

How the data were processed

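RNA-seq of 4 NP and 4 P libraries was analysed, with dataset and replicate number taken from the sample titles. Each profile of 200 pooled oocytes gave both an NP and a P pool, so NP and P libraries are not from separate oocytes. The main fit and the exact permutation tests of the ratios did not use this shared origin. The replicates are described as independent profiles. Where libraries share mice or a processing day is not given, so p-values measure the spread between these libraries. RNA was depleted of rRNA, primed with oligo(dT) and random primers, amplified as cDNA and made into libraries without strand information or molecular identifiers. The authors trimmed reads with Trim Galore 0.4.1, checked them with FastQC 0.11.5, aligned them to GRCm38 with HISAT2 2.0.5 (versions per the submitters' processing notes) and quantified genes in Seqmonk as FPKM, the unit of the deposited table used here. A deposited table of the authors' own comparisons (fold changes and p-values) and another of dataset means were not used.

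Differences were tested two-sided on log2(FPKM + 1), a scale that understates changes of low genes, using the linear model and trended empirical Bayes step of limma 3.58.1 under R 4.3.3. Genes entered when the mean of either dataset was above 0.1 FPKM. Benjamini-Hochberg adjustment ran over all 14292 genes tested, with a threshold of 0.1. The fit used all 8 libraries and no covariate, and was tested on simulated data. FPKM values are whole multiples of a step, from which a scaling number per library and counted fragments for 13590 genes (87.2% of the 15585 genes above 0, within 0.01 of a whole step) were recovered, all 10 genes among them. For 9 of these the annotated exon length was used, and for Kpna3 a length was searched for. A step is called a fragment in the text, though it may be a single read. One step of a 1 kb transcript was worth 0.132 to 0.770 FPKM in NP and 0.213 to 0.373 FPKM in P, so depth was a limit mainly for Kpna1 and Kpna4. Limits for a count of 0 cover counting error only.

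Copies were sought with blastn 2.17.0 in the GENCODE transcripts of GRCm38, and library ratios were compared by exact permutation tests with scipy 1.17.1 in Python 3.11.15. Numpy 2.4.6, pandas 2.3.3 and matplotlib 3.10.9 were also used. The 10 genes and the other lists were chosen with earlier results of these data known. Named from each further list were the genes called, or otherwise up to 3 genes with the lowest unadjusted p and the one with the highest mean FPKM. The copies, the overlapping genes and the 3 library ratios were chosen after values had been seen. Alternatives were other pseudocounts, filters and scalings, a replicate block, limma-voom on the recovered fragments, leaving out each library, and, chosen after seeing the data, adding the fragments of copies and a test of the library ratios by same replicate number. Other experiments of the study were not analysed here.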

Additional observations from a re-analysis of the deposited data

Results flagged for a closer look

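Of 34 groups of 4 libraries examined (the FPKM of each of the 10 genes and the share of each importin α gene, among others), 3 held a library whose gap to the nearest other as a share of the range exceeded Dixon's 95% critical value. For independent groups of normal values about 1 in 20 would be marked by chance. The FPKM and the shares rest on the same values and were not tested for normality, so that rate need not hold here. P replicate 2 had 3.53 FPKM of Kpna1, while the other P libraries had between 0 and 0.0502 FPKM, and in the same library Kpna1 made up 0.547% of the importin α FPKM against at most 0.00253% in the others. NP replicate 4 had Kpna2 at 78.2% of the importin α FPKM, while the other NP libraries had between 46.6% and 50.9%. That library had a Kpna2 level close to those of the others (873 FPKM) and the lowest Kpna7 level of all 8 libraries (97.6 FPKM).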

How the results depend on the processing

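No member passed the adjusted threshold under any alternative, and the sign of a member's log2 fold change turned in 20 of 160 refits, none of those for Cse1l or Ran. The 160 include refits with another filter or the replicate block, which leave the estimate unchanged and so could not turn its sign. With one median FPKM set for all libraries, the log2 fold change became 0.69 for Kpna2, 0.59 for Kpna3, 0.014 for Kpna6, 1.30 for Kpna7, 1.18 for Kpnb1 and 0.71 for Xpo1. With quantile normalization it became 0.029 for Kpnb1 and 0.43 for Xpo1, and by limma-voom on the recovered fragments 0.17 for Kpna7. Over leaving out each library in turn the ranges were −0.12 to 0.61 for Kpna1 and −0.0092 to 0.61 for Kpna4 (both lowest without P replicate 2), −1.17 to −0.28 for Kpna2, −0.68 to 0.36 for Kpna7, −0.64 to 0.26 for Kpnb1, −0.67 to 0.34 for Xpo1, 0.67 to 2.03 for Cse1l and 0.34 to 1.95 for Ran. The median of Ran cycle regulators minus that of all genes turned to 0.094 with quantile normalization, and over leaving out each library reached 0.029 (NP replicate 4), 0.089 (P replicate 2) and 0.044 (P replicate 4). The count of members whose libraries did not overlap, 0 as reported, was 1 (Cse1l) with one median FPKM and 0 to 1 over leaving out each library (Cse1l without NP replicate 3, Kpna2 without P replicate 1). Over all genes, P lay above NP in 720 of 14292 with one median FPKM and in 153 of 13913 without NP replicate 3. NP lay above P in 1607 of 14155 without P replicate 1. Genes called over the whole table, 3 as reported, numbered 5 with a pseudocount of 0.1 or a filter above 1 FPKM, 0 without a filter, with quantile normalization or with one median FPKM, 189 by limma-voom (2 higher in P, 187 in NP, of 12899), and 0 to 5 over leaving out each library. Same-numbered NP and P libraries had deviations correlated at 0.139, 0.0518, 0.251 and 0.155 over 11374 genes. Each P library correlated best with the NP library of its own number. NP replicate 2, however, correlated better with P replicate 1 (0.136) than with P replicate 2. These low correlations do not by themselves establish the numbers as pairs. With the replicate block 1 gene was called over the whole table and no member was, the unadjusted p of Ran being 0.0910, and that of the export factor Nxf1 0.0342 (limma). In that fit 1618 of 14292 genes had an unadjusted p below 0.05 lower in P, the direction of Nxf1. The fractions of each profile gave both an NP and a P pool, but no source used here says that a number marks the same profile. Between same-numbered libraries no member had the same direction in all 4. Rasl2-9 and its ratio to Ran were lower in P in all 4, as were Ranbp17, Rcc1, Rangrf, Gle1 and Nmd3. Tpx2, Tnpo1 and Ipo8 were higher in P in all 4. The share of all genes with such a pattern was not counted, so these genes are named as a description only. An exact sign-flip test over the 4 replicate numbers, added after seeing the data, gave p = 0.125 for the ratio of Rasl2-9 to Ran, the smallest it can give. The cause of these differences was not tested. Depth limits Kpna1 and Kpna4, which rest on fewer than 100 counted fragments in each library.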
